A study of Camponotus floridanus with 64 samples.

Results

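The 38 identifiers named as ribosomal RNA (rRNA) loci and the 29 named as small nuclear RNA (snRNA) loci were followed in brains of the carpenter ant Camponotus floridanus. They were chosen by the start of their names, Cflo_rRNA or Cflo_snRNA, and make up 67 of the 18130 identifiers in each of the 2 tables used. rRNAs form the body of the ribosome and its catalytic centre, and are made from repeated gene copies. snRNAs are the RNA parts of the small particles that recognise splice sites and carry out the removal of introns. Neither kind usually carries the long poly(A) tail of a messenger RNA, and the libraries were made from RNA selected for such tails. The identifiers do not say which rRNA or snRNA a locus holds, and none of them matched the reference gene table, so loci are called by number, as rRNA18 or snRNA16.

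The study asked whether drugs acting on histone acetylation alter foraging behaviour in minor workers. Each scout library came from 15% of the cells of 1 central brain of an adult minor worker caught scouting. The workers had been set apart at 25 to 30 days of age and fed the compounds in 20% sugar water, for 45 days according to the labels. That span would end at 70 to 75 days, and the ages labelled for the DMSO and TSA+C646 arms, and for some TSA libraries, lie outside it. The DMSO arm, which received 0.5% DMSO alone, had 5 libraries, aged 78 days, from colonies SB2 (3), SB6 (1) and SB7 (1). The TSA arm received 50 µM TSA (trichostatin A, a histone deacetylase inhibitor) and had 10 libraries, aged 68 to 73 days, from SB1 (4), SB2 (4) and SB4 (2). The TSA+C646 arm received 50 µM TSA with C646, an inhibitor of the acetyltransferases CBP and p300, and had 6 libraries, aged 57 to 66 days, from SB1 (3), SB4 (2) and SB6 (1). C646 was given at 50 µM in 4 of them and at 100 µM in the other 2, TSA+C646 14 and 15. All 3 arms received DMSO as the solvent, and age and colony differ between them, so that treatment, age and colony cannot be told apart. The day 1 table held 5 minor and 5 major workers, the small and large worker castes, all from colony SB2 and aged 1 day. The descriptions of the scout libraries name a linear amplification step (LinDA) and those of the day 1 libraries do not, but the protocol text, which all share, names it and the 15% aliquot for all, so whether preparation differed is unclear.

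The deposited values lie on a log2 scale, and within a table every library holds the same ladder of values apart from a constant. The highest locus of any library therefore has nearly the same value as the highest of any other, and what varies is which locus stands on which rung. Levels below are these values with the constant removed and with loci that were not detected at 0, and a rank of 1 is the highest level in that library. A locus said to be listed at 0 is one not detected, which can also be a failed estimate. Its deposited value can lie above 0, up to 0.84 in TSA 10 and 1.30 in TSA+C646 15. The tests of differences used the deposited values. Read totals are unknown. Between 2791 (TSA+C646 15) and 12328 (TSA 10) identifiers were detected per scout library, between 10462 and 11259 per minor library, and 5459, 6298, 6528, 10216 and 11768 in majors 1 to 5. None of the marker names looked for was found among the identifiers, so the tissue could not be checked by markers. In bulk samples, fewer cells of a type and less RNA per cell cannot be told apart.

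**Figure D1:**
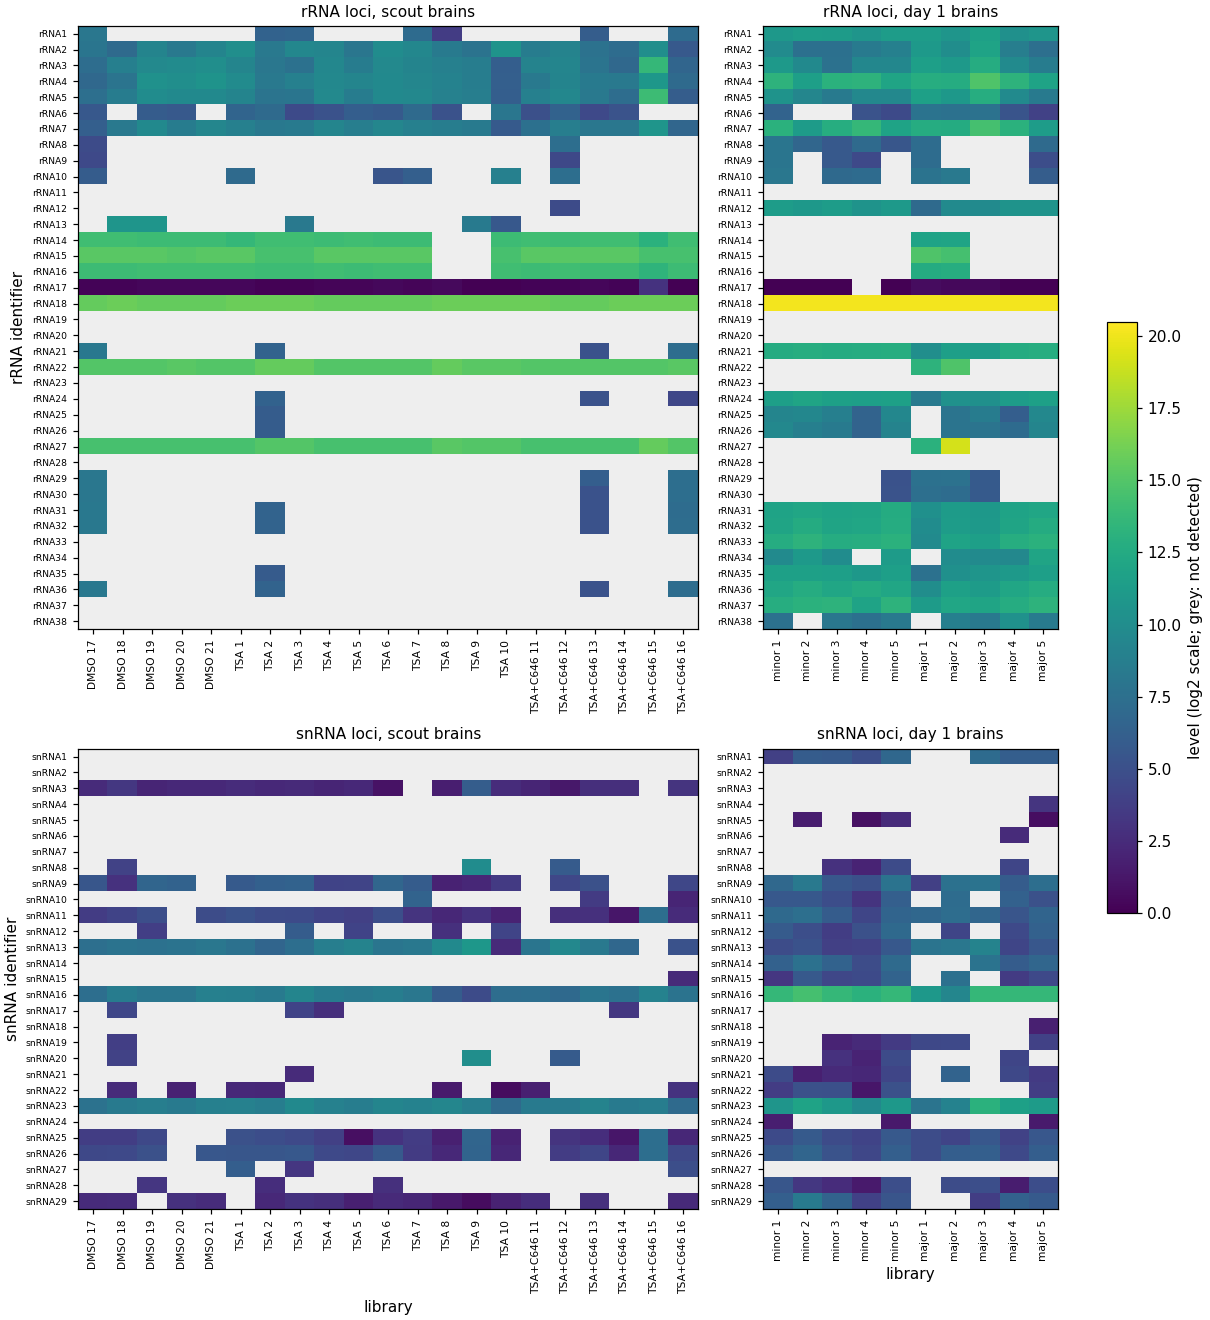
Level of every rRNA locus (top, rows) and snRNA locus (bottom, rows) in every scout library (left, columns) and day 1 library (right, columns), on the log2 scale, with loci not detected in grey. The rows for rRNA14, 15, 16, 22 and 27 are filled in the scouts and, on day 1, in majors 1 and 2.

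rRNA loci stood at the very top of nearly every library, and snRNA loci mostly below them. Of the 38 rRNA loci, 9 were detected in every scout library and 16 in every day 1 library, and 6 of these were the same loci. Of the 29 snRNA loci, 2 were detected in every scout library, 7 in every day 1 library and 2 in all libraries of both tables. In neither table were rRNA11, rRNA19, rRNA20, rRNA23 and rRNA28 detected, nor were 2 snRNA loci, snRNA2 and snRNA7. Detected only on day 1 were 4 rRNA and 7 snRNA loci, and only in scouts 1 rRNA and 3 snRNA loci. The share of all identifiers detected only on day 1 or only in scouts was not computed.

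Per library, rRNA loci numbered 12 to 23 in the DMSO arm, with a mean of 15.0 ± 4.53 (SD, n = 5). They numbered 10 to 22 under TSA (14.2 ± 3.22, n = 10) and 12 to 21 under TSA+C646 (16 ± 3.90, n = 6). The 3 ranges overlap. On day 1 they numbered 21 to 25 in minors (23.6 ± 1.67, n = 5) and 22 to 30 in majors (25.8 ± 3.19, n = 5), with the 2 highest counts in majors 1 and 2, at 28 and 30. These counts are out of 38 loci. Of all identifiers, 45.7% ± 3.15 were detected in the DMSO arm, 52.2% ± 8.45 under TSA and 45.0% ± 16.5 under TSA+C646. The day 1 means were 59.9% ± 1.78 in minors and 44.4% ± 15.3 in majors. Among the first 20 ranks, 3 to 11 places in a scout library and 11 to 17 in a day 1 library were held by rRNA loci.

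snRNA loci numbered 7 to 14 in the DMSO arm (9.40 ± 2.88, SD, n = 5), 9 to 13 under TSA (10.6 ± 1.07, n = 10) and 5 to 13 under TSA+C646 (8.67 ± 2.94, n = 6). On day 1 they numbered 17 to 21 of 29 in minors (18.8 ± 1.79, n = 5). In minors, 59.9% of all identifiers were detected on average. In majors 1 to 5 the snRNA loci numbered 8, 13, 11, 18 and 21. The 3 majors below the minors' range were the 3 libraries in which 5459, 6298 and 6528 identifiers were detected, whereas their rRNA counts, 28, 30 and 24, did not fall below the minors'. The part that the number of detected identifiers has in these snRNA counts was not tested. Scout and day 1 libraries differ in age, treatment and table, and possibly in amplification, which cannot be told apart.

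**Figure D2:**
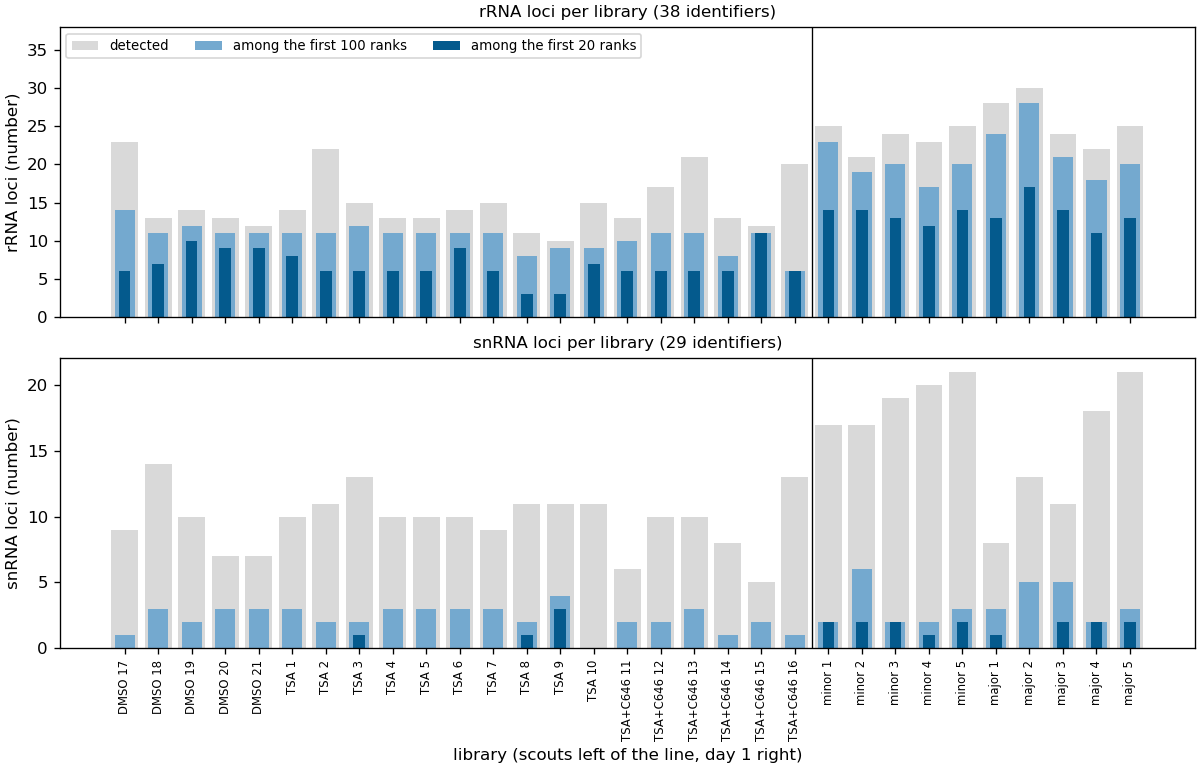
Number of rRNA loci (top) and snRNA loci (bottom) per library that were detected (grey bars), stood among the first 100 ranks (light blue) or among the first 20 (dark blue), with scouts left of the line and day 1 libraries right of it. All 10 day 1 libraries hold 11 to 17 rRNA loci among the first 20 ranks, and snRNA loci hold 0 to 3 such places in any library.

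As a share of the summed linear level, which is 2 to the power of the level minus 1, rRNA loci took 53.2% ± 1.05 (SD, n = 5) in the DMSO arm. They took 51.5% ± 6.29 (n = 10) under TSA and 55.2% ± 4.06 (n = 6) under TSA+C646. On day 1 they took 62.2% ± 0.0983 (n = 5) in minors and 69.2% ± 14.5 (n = 5) in majors. The highest value, 95.1% in major 2, occurred where the first and second rank were both rRNA loci. Apart from it, majors took between 62.0% and 63.6%. Because the rungs are fixed, this share mostly records how many of the first few ranks were rRNA. snRNA loci took between 0.0978% and 1.34% in scouts and between 0.125% and 1.40% on day 1.

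A single locus, rRNA18, led both tables. It held rank 1 in all 10 day 1 libraries, at a level of 20.12, and in the scouts it held rank 1 in 11 libraries and rank 2 in 10, at levels of 15.86 and 15.62. It held rank 1 in 1 of 5 DMSO libraries, 6 of 10 TSA libraries and 4 of 6 TSA+C646 libraries, and whether this order differs between arms was not tested. rRNA17, which lies within a few lines of it in the scout table, stood at the other end. It was detected in all 21 scout libraries at levels of 0.01 to 0.52, apart from 3.03 in TSA+C646 15.

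Next to rRNA18 in the scouts stood rRNA15, rRNA22, rRNA27, rRNA14 and rRNA16. rRNA22 and rRNA27 were among the first 10 ranks in 21 of 21 scout libraries, with levels of 15.03 to 15.62 for rRNA22 and of 14.50 to 15.62 for rRNA27. rRNA14, rRNA15 and rRNA16 were among the first 10 in 19 of 21. In TSA 8 and TSA 9 all 3 were listed at 0, and these 2 libraries, both from colony SB1, had 3 rRNA loci among the first 10 ranks, against 6 in each of the 5 DMSO libraries.

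On day 1 the same 5 loci were detected in 2 libraries, major 1 and major 2. rRNA15 had a level of 14.83 in major 1 and 14.43 in major 2. rRNA27 had 13.11 in major 1 and 19.19 in major 2, where it held rank 2. rRNA22 had 13.28 and 14.83, rRNA16 had 12.58 and 12.77, and rRNA14 had 11.86 and 11.96. All 5 were listed at 0 in all 5 minors and in majors 3, 4 and 5, so the castes overlap at 0 for each of them.

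A larger set showed the opposite pattern. Detected in at least 8 of 10 day 1 libraries and in at most 4 of 21 scout libraries were 13 rRNA loci, namely rRNA12, rRNA21, rRNA24, rRNA25, rRNA26 and rRNA31 to rRNA38. These limits, like those that single out the 5 loci above, were set after the values were seen. The share of all identifiers that meet either set of limits was not computed. The patterns are therefore not shown to be particular to these loci. In minors 12 or 13 of the 13 were detected, at levels between 6.53 and 13.28. Major 1 had 9 of them at levels of 7.06 to 11.22, and majors 2 to 5 had all 13. In 16 of 21 scout libraries none was detected.

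Within this set the first 3 majors stood below the minors at several loci. The level of rRNA21 was 12.58, 12.77, 12.58, 12.68 and 12.77 in minors 1 to 5 and 10.15, 11.56, 11.33, 12.58 and 12.77 in majors 1 to 5. For rRNA33 the levels were 12.68, 13.28, 12.68, 12.77 and 13.11 in minors and 9.83, 11.86, 11.56, 12.77 and 13.11 in majors. For rRNA37 they were 12.77, 13.11, 13.28, 11.86 and 13.28 in minors and 11.22, 12.17, 11.96, 12.68 and 13.28 in majors. Majors 4 and 5 lay within the minors' range at all 3 loci. Majors 1 to 3 lay below it at rRNA21 and rRNA33, and at rRNA37 majors 2 and 3 lay within it.

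Where members of this set appeared in scouts, several appeared together and on neighbouring ranks. rRNA21, rRNA31, rRNA32 and rRNA36 were all detected in DMSO 17, TSA 2, TSA+C646 13 and TSA+C646 16 and in no other scout library. They held ranks 70 to 73 in DMSO 17, 163 to 166 in TSA 2, 287 to 290 in TSA+C646 13 and 114 to 117 in TSA+C646 16. In each of these libraries their order by rank was rRNA21, rRNA36, rRNA32 and rRNA31, from the latest line to the earliest. Ties would take that order if given rising values in line order, and whether these loci were tied was not tested. rRNA29 and rRNA30 accompanied them in DMSO 17 and in TSA+C646 13 and 16, but not in TSA 2. The 4 libraries come from 3 arms and 2 colonies, SB1 and SB2.

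**Figure D3:**
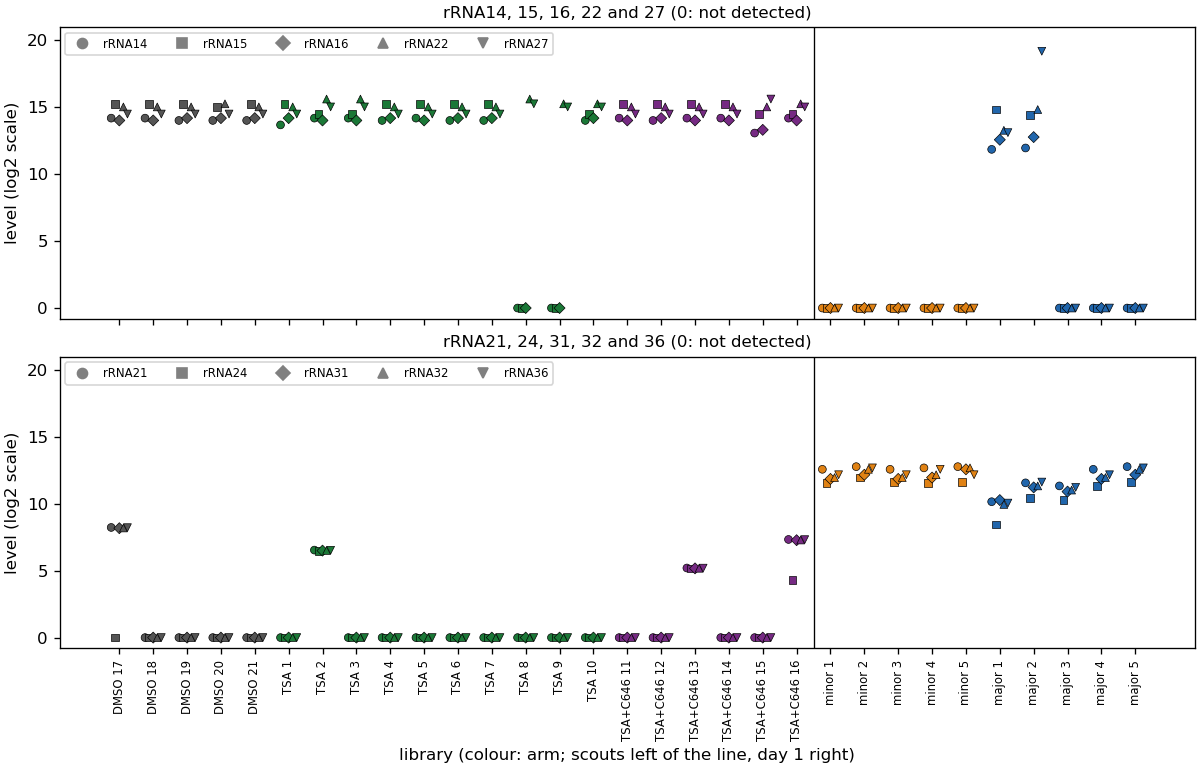
Levels (log2 scale, 0 for not detected) of rRNA14, 15, 16, 22 and 27 (top) and of rRNA21, 24, 31, 32 and 36 (bottom) in each library, coloured by arm, with scouts left of the line. The upper 5 are high in all scouts, save 3 of them in TSA 8 and 9, and at 0 in 8 of 10 day 1 libraries, and the lower 5 are detected in all 10 day 1 libraries.

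Loci on neighbouring ranks recurred in the same pairs. On day 1 rRNA21 and rRNA36 held adjacent ranks in 9 of 10 libraries, as did rRNA31 and rRNA32, with median level gaps of 0.11 in both pairs. At adjacent ranks a gap is the fixed step between rungs and does not measure how alike the loci are. rRNA loci crowd the first ranks on day 1, and how often other rRNA pairs would be adjacent there was not computed. rRNA4 and rRNA7 were adjacent in 8 of 10 and rRNA3 and rRNA5 in 6 of 10. In the scouts rRNA14 and rRNA16 were adjacent in 18 of the 19 libraries that held them. snRNA8 and snRNA20 were adjacent in all 3 scout libraries with either, and in 3 of 4 day 1 libraries, where their levels differed by at most 0.0073. In every library with both, snRNA20, on the later line, ranked above snRNA8. Ties would take that order if given rising values in line order, as assumed here for loci not detected. Whether snRNA8 and snRNA20 were tied was not tested. Near-identical copies could share reads, and whether these loci are such copies was not tested, so the value of a single member of such a pair is uncertain. rRNA2 to rRNA11 form a run of 10 loci within 11 lines of the tables, and rRNA29 to rRNA34 a run of 6.

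Of the 6 rRNA loci detected in all 31 libraries, rRNA18 apart, 5 lie in the run of rRNA2 to rRNA11, namely rRNA2, rRNA3, rRNA4, rRNA5 and rRNA7. The level of rRNA4 in the DMSO arm was 6.89, 7.89, 10.34, 10.12 and 10.51. Under TSA it ran from 6.25 through a median of 9.21 to 9.86, and under TSA+C646 from 7.12 through 8.32 to 10.85. On day 1 it was 13.28, 11.56, 13.11, 13.28 and 11.96 in minors and 12.77, 12.68, 14.83, 13.28 and 11.86 in majors. The groups overlap within each table. The lowest TSA value, 6.25, came from TSA 10, which was also lowest of its arm at rRNA3 (6.13), rRNA5 (6.14) and rRNA7 (5.79). At rRNA2 of the same run TSA 10 was instead the highest of all scout libraries (10.51), as it was at rRNA6 (8.09) and rRNA10 (8.92). In TSA+C646 15, the library with 2791 detected identifiers, rRNA3 and rRNA5 reached 13.68 and 14.02, against at most 10.12 and 9.97 in the other 20 scout libraries.

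Among snRNA loci, snRNA16 and snRNA23 were detected in all 31 libraries. The level of snRNA16 in the DMSO arm was 7.40, 8.59, 8.09, 8.02 and 8.92. Under TSA it ran from 4.72 through a median of 8.36 to 9.30, and under TSA+C646 from 6.99 through 7.73 to 9.11. The lowest TSA values, 5.96 and 4.72, came from TSA 8 and TSA 9, the libraries in which rRNA14, rRNA15 and rRNA16 were listed at 0. On day 1 snRNA16 was 13.67, 14.43, 13.67, 13.11 and 13.67 in minors, and 10.91, 9.38, 13.67, 13.67 and 13.67 in majors. Majors 1 and 2 lay below all minors and majors 3 to 5 lay within the minors' range. It held rank 4, 5 or 7 in all 5 minors, and rank 4 was the best of any snRNA locus in either table.

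snRNA23 had levels of 7.73, 8.39, 8.79, 8.37 and 8.90 in the DMSO arm. It ran from 7.06 through 9.01 to 9.76 under TSA and from 7.06 through 8.50 to 9.17 under TSA+C646, and the arms overlap. On day 1 it was 10.66, 11.86, 10.91, 9.69 and 10.91 in minors and 7.92, 9.10, 13.11, 11.62 and 11.22 in majors. The majors thus spanned a range on both sides of the minors'.

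snRNA13 stood out from the other common snRNA loci by its order on day 1. Its level was 4.79, 5.14, 3.90, 4.06 and 5.65 in minors and 7.88, 8.09, 9.21, 4.29 and 5.54 in majors. Majors 1 to 3 lay above all minors and majors 4 and 5 within their range. In the DMSO arm it varied little, at 7.48, 7.82, 7.61, 7.78 and 8.14. Under TSA it ran from 2.41 in TSA 10 through 8.10 to 10.85 in TSA 9, and under TSA+C646 from 0 in TSA+C646 15 through 7.43 to 9.54.

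The remaining common snRNA loci had low to middle levels. snRNA9 had 5.51, 2.96, 6.71, 6.44 and 0 in the DMSO arm and was detected in all 10 TSA libraries, from 1.94 through 5.01 to 6.76. In the TSA+C646 arm it was detected in 3 of 6 libraries, at 4.33, 5.10 and 4.37, and listed at 0 in TSA+C646 11, 14 and 15. The values of the 3 arms overlap. snRNA26 had 4.44, 4.54, 5.08, 0 and 5.60 in the DMSO arm, from 2.31 through 4.99 to 6.64 under TSA and from 0 through 3.98 to 7.37 under TSA+C646. snRNA11 had 3.66, 4.16, 4.96, 0 and 4.77 in the DMSO arm, from 1.98 through 3.99 to 5.13 under TSA and from 0 through 2.65 to 7.42 under TSA+C646. The highest value of both in the last arm came from TSA+C646 15, and both were listed at 0 in DMSO 20 and TSA+C646 11.

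**Figure D4:**
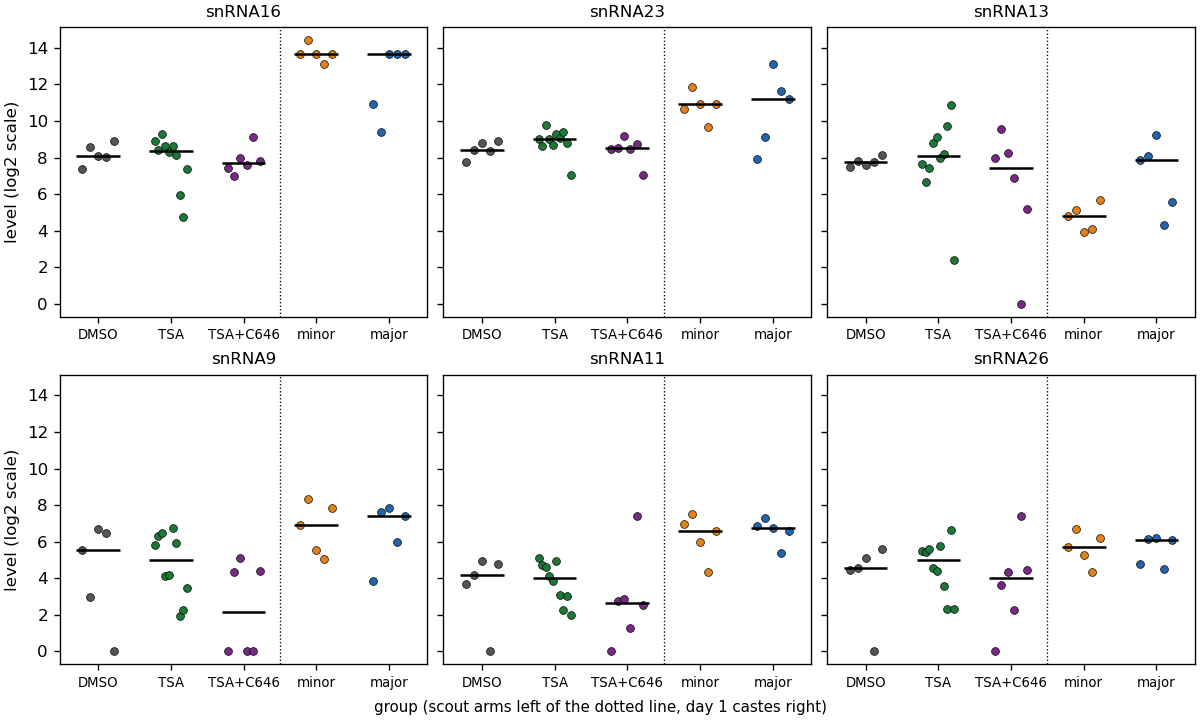
Levels (log2 scale) of the 6 snRNA loci with the highest means, 1 point per library and a bar at the group median, with scout arms left of the dotted line and day 1 castes right of it. The scout arms overlap at every locus shown, and snRNA13 is higher in 3 majors than in all 5 minors.

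Some snRNA loci had been detected almost only on 1 side, and the share of all identifiers with such a pattern was not computed. snRNA3 was detected in 19 of 21 scout libraries, at levels of 0.99 to 6.01, and in none of the 10 day 1 libraries. snRNA1 and snRNA14 were detected in 8 of 10 day 1 libraries, all but majors 1 and 2, and in no scout library. snRNA1 had 3.92, 5.97, 5.81, 4.93 and 6.82 in minors and 7.18, 6.15 and 6.13 in majors 3 to 5. snRNA14 had 6.35, 7.68, 6.42, 4.80 and 7.08 in minors and 7.81, 5.96 and 6.75 in majors 3 to 5.

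Differences between groups were tested with limma on the values as deposited, over every identifier with a mean of at least 1, with Benjamini-Hochberg adjustment and a threshold of 0.05. In the scouts 4899 identifiers were tested, 33 of them members (21 rRNA and 12 snRNA). No member passed in any of the 3 scout comparisons, where limma called 0 of all 4899 identifiers (0%) in each. The arms share libraries between comparisons, so the 3 results are not independent. As no source says whether same-arm libraries share a culture or nest, p-values measure the spread between these brains.

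Between TSA and DMSO, 0 members reached even an unadjusted p under 0.05, against 2.71% of all identifiers higher and 0.551% lower. With the constants of the libraries removed, the shares of all identifiers were 1.73% and 1.37%, and still 0 members reached it. Array weights gave 2 members higher (6.06% of the 33 tested) and 0 lower, against 4.16% and 1.82% of all identifiers. No member had levels that did not overlap between these arms, against 0.0612% of all identifiers higher and 0.0204% lower. The smallest adjusted p of a member was 0.995. Of the rRNA loci 8 had a higher and 13 a lower mean under TSA, with a median difference of -0.41. Without DMSO 17 alone this turned to 13 higher and 8 lower, with a median of 0.26. Of the snRNA loci 9 had a higher and 3 a lower mean, with a median of 0.39, which was 0.15 without DMSO 20. Of all identifiers, 34% had a lower mean under TSA, and their median was 0.14. With the constants removed, 53.6% were lower and the median was -0.03, so the direction of the background depends on the scaling. The most negative rRNA differences were those of rRNA15, at -3.06 ± 2.24 (SE), and rRNA14, at -2.68 ± 2.11, and both rest on the 2 TSA libraries that list these loci at 0. Without TSA 8 and 9 and TSA+C646 15 the difference of rRNA14 was 0.089. Within colony SB2, the one colony with several libraries in both arms, the median was -0.02 for rRNA and 0.31 for snRNA loci.

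The most positive rRNA differences were those of rRNA6, at 2.25 ± 1.31 (SE), and rRNA10, at 1.72 ± 1.69. rRNA6 had levels of 5.66, 0, 5.97, 5.75 and 0 in the DMSO arm and from 0 through 5.96 to 8.09 under TSA. rRNA10 was detected in 1 of 5 DMSO and 4 of 10 TSA libraries. Among snRNA loci, snRNA25 had 1.38 ± 1.06 and snRNA12 had 1.12 ± 0.96. snRNA25 was detected in 3 of 5 DMSO libraries and all 10 TSA libraries, and snRNA12 in 1 of 5 and 4 of 10. The lowest were snRNA16, at -0.20 ± 0.58, and snRNA29, at -0.15 ± 0.56, both smaller than their errors.

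Between TSA+C646 and DMSO, again 0 members reached an unadjusted p under 0.05, against 2.33% of all identifiers higher and 0.735% lower, and the smallest adjusted p of a member was 0.999. No member had levels that did not overlap between these arms either, against 0.0612% of all identifiers higher and 0.245% lower. rRNA loci were higher in 14 and lower in 7 cases, with a median of 0.19, and snRNA loci higher in 4 and lower in 8, with a median of -0.31. Neither direction was stable. Without TSA+C646 16, 8 rRNA loci were higher and 13 lower (median -0.20), and array weights gave 7 and 14 (median -0.30). A colony block gave a median of 0.82 for rRNA and turned the snRNA loci to 8 higher and 4 lower (median 0.17). Of all identifiers, 44.8% had a lower mean, and their median was 0.05. With the constants removed, 60.5% were lower with a median of -0.12, and the rRNA loci were split 10 to 10. The shares of all identifiers at an unadjusted p under 0.05 were then 1.54% higher and 2.46% lower. At that limit array weights gave 0 members higher and 2 lower (6.06% of the 33 tested), against 2.96% and 1.92% of all identifiers. SB6, the one colony in both arms, gave 1 library to each, too few for a value within it. The largest difference was that of rRNA13, at -4.02 ± 2.15 (SE). This locus had a level of 10.67 in both DMSO 18 and DMSO 19 and was listed at 0 in the other 3 DMSO libraries and in all 6 TSA+C646 libraries, so the arms overlap at 0. rRNA4 had -0.36 ± 0.66. The highest rRNA values, 0.76 ± 1.47 for rRNA29 and 0.73 ± 1.91 for rRNA1, rest on 2 of 6 TSA+C646 libraries and 1 of 5 DMSO libraries with a level above 0. Among snRNA loci the differences ran from -1.87 ± 1.28 for snRNA9 and -1.29 ± 1.32 for snRNA13 to 0.49 ± 1.17 for snRNA25 and 0.33 ± 1.56 for snRNA20.

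In the TSA+C646 arm against the TSA arm, means were lower at all 12 snRNA loci tested, from -2.42 to -0.02 with a median of -0.71. Of all identifiers, 61.5% had a lower mean, and the median of all was -0.10. The differences nearest 0, of snRNA8 (-0.02) and snRNA20 (-0.03), rest on 1 of 10 TSA and 1 of 6 TSA+C646 libraries for each locus. rRNA loci were split, with 11 higher and 10 lower and a median of 0.32, which was 0.03 without TSA+C646 15 and -0.23 with array weights. The smallest adjusted p of a member was 0.991. snRNA9, at -2.42 ± 1.09 (SE), was the 1 member with an unadjusted p under 0.05 (p = 0.0377, adjusted p = 0.991, limma), where 2.12% of all identifiers were lower and 1.43% higher at that limit. With 1 library left out in turn, 0 to 3 members were lower and 0 higher at that limit. Within colony SB1 18.2% of the 33 members tested were higher and 9.09% lower, against 4.41% and 0.490% of all identifiers. Array weights gave 0% higher and 15.2% lower, against 2.33% and 2.90%. Levels overlapped between the arms at every member, and at every other identifier tested (0% in either direction). snRNA12 followed at -1.72 ± 0.91, detected in 4 of 10 TSA libraries and in no TSA+C646 library, which all but fixes the sign of its difference. The 12 loci share libraries and are not 12 independent observations. With C646 at 50 µM, 8 of the 12 were lower (median -0.35), where 40.8% of all identifiers were lower. Within colony SB1 9 of the 12 were lower (median -0.92), where 38.3% of all identifiers were. Without TSA 8 and 9 and TSA+C646 15, 8 of the 12 were lower, and 40.0% of all identifiers. Leaving out TSA+C646 11 alone gave 9 of 12 lower (median -0.38) and 58.8% of all identifiers. Leaving out TSA+C646 15 also gave 9 of 12 lower (median -0.39), and 45.5% of all identifiers.

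The rRNA loci with the most positive differences here were again rRNA15, at 2.97 ± 2.11, and rRNA14, at 2.68 ± 1.99, whose TSA libraries include the 2 at 0. The most negative were rRNA13, at -2.16 ± 1.83, and rRNA6, at -2.03 ± 1.23. rRNA13 was detected in 3 of 10 TSA libraries and rRNA6 in 9 of 10, against 0 and 4 of 6 TSA+C646 libraries.

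Between day 1 majors and minors, 3694 identifiers were tested, 50 of them members (31 rRNA and 19 snRNA), and no member passed, where limma called 2 of all identifiers (0.0541%). The smallest adjusted p of a member was 0.201. At an unadjusted p under 0.05, 2 members were higher in majors and 4 lower, which is 4% and 8% of the 50, against 4.33% and 12.2% of all identifiers. With 1 library left out in turn, 0 to 10 members were higher and 1 to 12 lower at that limit. Both were highest without major 5, at 20% and 24% of the 50, against 5.98% and 16.6% of all identifiers. No member had levels that did not overlap between the castes, against 1.22% of all identifiers higher and 4.3% lower in majors. A p that misses the threshold does not show that the castes have the same levels.

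The 6 members at an unadjusted p under 0.05 were snRNA22, snRNA13, rRNA8, rRNA12, rRNA6 and rRNA24, with adjusted p between 0.201 and 0.295 (limma). snRNA22 had 3.68, 5.08, 5.03, 1.27 and 5.11 in minors and was listed at 0 in majors 1 to 4, with 3.74 in major 5. Its difference was -3.23 ± 0.95 (SE). snRNA13 was higher in majors by 2.30 ± 0.89, with 3 of 5 majors above all minors. rRNA8 had 7.98, 6.79, 5.72, 7.06 and 5.45 in minors and 7.22, 0, 0, 0 and 7.06 in majors, a difference of -3.73 ± 1.63. rRNA6 had 6.54, 0, 0, 5.27 and 4.58 in minors and 7.80, 7.66, 7.70, 5.35 and 3.94 in majors, a difference of 3.22 ± 1.43. rRNA12 and rRNA24 differed by -1.47 ± 0.64 and -1.24 ± 0.55.

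Of the rRNA loci 15 had a higher and 16 a lower mean in majors, with a median of -0.02. The 15 include rRNA14, rRNA15, rRNA16, rRNA22 and rRNA27, which were detected in no minor and were tested only through majors 1 and 2. Their sign was thus fixed beforehand, and the count and median without them were not computed. snRNA loci were lower in majors in 16 of 19 cases, with a median of -1.07, where 65.2% of all identifiers had a lower mean in majors and the median of all was -0.22. Single libraries moved the snRNA count. Without minor 5 it was 11 of 19 (median -0.38), without major 1 it was 11 of 19 (median -0.42), and without major 4 it was 13 of 19 (median -1.79). Array weights gave 15 of 19 with a median of -0.20. Without majors 1 to 3, in which the fewest identifiers were detected, 10 of 19 snRNA loci were lower and their median was -0.00057, and 17 of 31 rRNA loci were lower with a median of -0.05. The largest positive differences, 6.46 ± 3.63 (SE) for rRNA27 and 5.89 ± 3.18 for rRNA15, come from majors 1 and 2 alone. rRNA25 had the second most negative rRNA difference, -2.26 ± 1.62, and was listed at 0 in major 1. Among snRNA loci snRNA29 had -2.73 ± 1.31, being listed at 0 in majors 1 and 2, and snRNA19 had 0.99 ± 1.14.

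**Figure D5:**
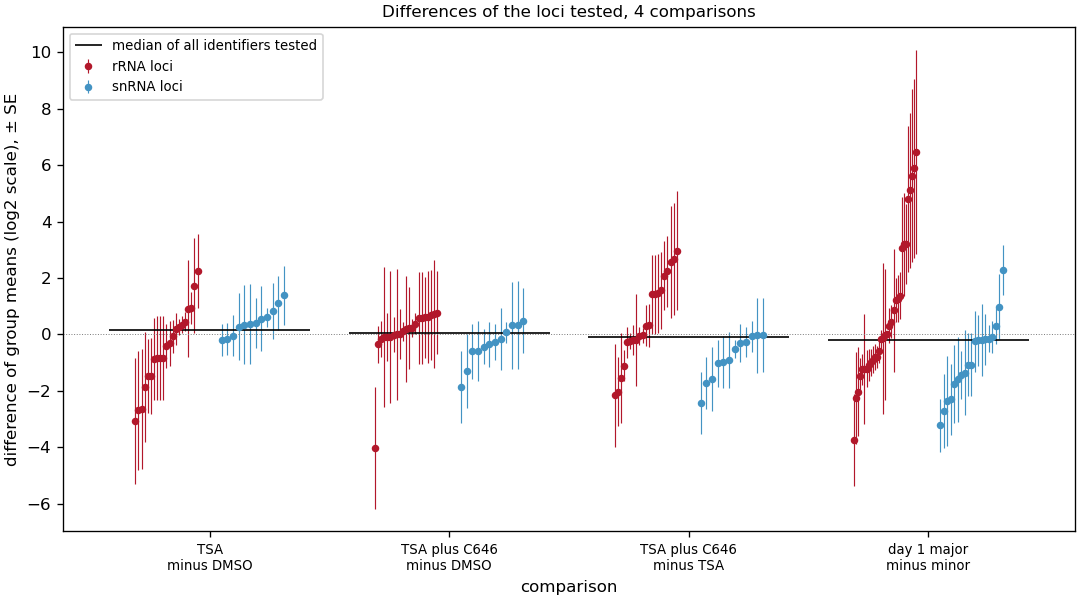
Difference of group means (log2 scale, values as deposited) with its SE for every rRNA locus (red) and snRNA locus (blue) tested in the 4 comparisons, sorted within each class, and the median of all identifiers tested (black line). No locus passes the adjusted test, and the snRNA points lie at or below 0 in all 12 cases for TSA plus C646 minus TSA and in 16 of 19 for majors minus minors.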

How the data were processed

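Poly(A)-selected RNA of 21 scout brains and 10 day 1 brains was analysed, of 64 samples in the series. The submitters' processing notes name bcl2fastq 2.0, Bowtie2 and Cufflinks 2.2.1. The values the authors deposited are on a log2 scale, inferred from the numbers, since the unit is not given in the sources used here. Whether they are per length is not stated, so levels of different loci are only described. In each table all libraries equal 1 shared distribution plus a constant per library, with values below 0 set to 0, within 1e-10. No source records how this was made. Identifiers not detected were taken to be those tied at the bottom of a library. They were found as the run from the lowest value upward in which the line number only rises. This assumes that tied identifiers were given rising values in line order, which no source states.

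Differences were tested with limma 3.58.1 (R 4.3.3; lmFit, eBayes with trend) on the deposited log2 values, with 1 fit for the 3 scout arms and 1 for day 1. A mean of at least 1 was required, and p-values were adjusted (Benjamini-Hochberg) over all identifiers tested. Nothing was tested between tables. Both scripts were tested on simulated data. Groups come from the labels. Members and lists were chosen with earlier results of these data known. Named loci are the 6 highest of each class and table, the 2 largest differences each way of each class and comparison, and any that pass the test (none did) or that are detected in all libraries of 1 group and none of another in the same table (none were). rRNA2, rRNA3, rRNA5, rRNA12, rRNA17, rRNA24, rRNA30, rRNA31, rRNA32, rRNA36, snRNA1, snRNA3, snRNA14 and other loci outside this rule were named after their values were seen. Alternatives were other pseudocounts, filters and scalings, array weights, blocks, and leaving libraries out, which kept the identifiers tested in the full fit. That last choice was made after seeing that 0 members were called with either filter. Depth in reads is unknown, so no counting intervals are given. Another table, from a control of the amplification, holds no member and was not used.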

Additional observations from a re-analysis of the deposited data

Results flagged for a closer look

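Within each arm, libraries that stood far from the others were sought for 17 loci and 4 class values. Of 105 groups, 21 held such a library. The limit used flags about 5% of groups by chance when values are independent and continuous. These levels are often tied and the loci share libraries, so that rate does not apply here. Ranks at the top of a library are few and shared, so a step of 1 rank is enough to set a library apart when the other 4 or 5 are tied. In the DMSO arm this held for rRNA15 (15.03) and rRNA22 (15.26) in DMSO 20 and for rRNA18 (15.86) in DMSO 18. In TSA+C646 16 it held for rRNA22 (15.26).

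Larger gaps came from few libraries. DMSO 17 had 23 rRNA loci detected and a level of 8.23 for rRNA21, which is listed at 0 in the other 4 DMSO libraries. TSA 2 had 22 rRNA loci detected and a level of 6.54 for rRNA21, likewise at 0 in the other 9. In DMSO 20 snRNA11 and snRNA26 were both at 0. TSA 10 was lowest of its arm at rRNA4 (6.25), rRNA7 (5.79), snRNA13 (2.41) and snRNA23 (7.06), and had the most identifiers detected of all scouts, 12328. At rRNA2 it was the highest of its arm (10.51). TSA 3 had 13 snRNA loci detected, and TSA 9 had 1.34% of the linear level in snRNA loci, with snRNA8, snRNA13 and snRNA20 among its first 20 ranks.

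TSA+C646 15, with 2791 identifiers detected, was lowest of its arm at rRNA14 (13.07) and rRNA16 (13.31) and highest in the rRNA share of the linear level, 63.1%. TSA+C646 16, with 12032 identifiers detected, was lowest at snRNA23 (7.06). Major 2 had 95.1% of the linear level in rRNA loci. The part that the number of detected identifiers has in these values was not tested.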

How the results depend on the processing

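limma called 0 members in all 4 comparisons under every alternative run, with each library left out in turn included. The smallest adjusted p of a member in these leave-one-out fits was 0.632 or more in the scout comparisons and 0.0517 in majors minus minors, where the number of all identifiers called ran from 2 to 37: 37 without major 5, 4 without minor 5 or major 4, 3 without minor 2 or 4, and 2 without any other single library. Without majors 1 and 2 together it was 0. Means of the class counts and shares moved by less than 1 SD under the alternatives run. Leaving out 1 library cannot move the mean of its arm by 1 SD, so there this outcome was fixed beforehand. The SD of the rRNA share in majors, 14.5, includes major 2 at 95.1%. Replicate numbers of the day 1 castes do not pair the samples in any label. The correlations of same-numbered deviations were -0.04, -0.12, 0.17, 0.0071 and -0.02, and with the numbers as a replicate block 0 members and 0 of all identifiers were called, against 2 without it.

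Removing the constants shifted the median of all identifiers by over 0.1 in TSA minus DMSO and in TSA+C646 minus DMSO, from 0.14 to -0.03 and from 0.05 to -0.12. Quantile normalization gave -0.02 and -0.07.

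Of the 30 differences named, 20 kept their sign under all alternatives and 10 did not, and the cause was not tested. Between TSA and DMSO, rRNA14 turned to 0.15 within colony SB2 and to 0.089 without TSA 8 and 9 and TSA+C646 15, and ran from -3.07 to -1.43 with libraries left out in turn. snRNA16 turned to 0.24 with array weights, 0.28 with a colony block, 0.39 without those 3 libraries and 0.72 within SB2, and ran from -0.39 to 0.11 with libraries left out. snRNA29 turned to 0.025 without the 3 libraries and 0.34 within SB2, and ran from -0.63 to 0.047.

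Between TSA+C646 and DMSO, array weights turned rRNA1 to -0.55, rRNA29 to -0.54, snRNA13 to 0.19 and snRNA25 to -0.75. With C646 at 100 µM only, rRNA1 was -1.63, rRNA29 -1.64, rRNA4 0.25 and snRNA20 -0.81, and with 50 µM only, snRNA13 was 0.22 and snRNA25 -0.15. Without TSA+C646 15 and 16, rRNA1 was -0.12, rRNA29 -0.11, snRNA13 0.42 and snRNA25 -0.64, and without TSA 8 and 9 and TSA+C646 15 snRNA25 was -0.35. With libraries left out in turn, rRNA1 ran from -0.42 to 2.35, rRNA29 from -0.42 to 2.39, snRNA20 from -0.63 to 1.14 and snRNA25 from -0.35 to 1.06. In majors minus minors, snRNA19 was -0.28 without majors 1 and 2. Leaving out these libraries together (TSA 8 and 9 with TSA+C646 15, and majors 1 and 2) was chosen after seeing the data.

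Top ranks hold fixed values, so a change there larger than a step of rank cannot show, and read depth is unknown. Reads shared by near-identical loci were not measured, and the strand used in counting is not given in the sources used here. Arms differ in colony and age. Scouts and day 1 brains were not tested against each other.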
